A study of Homo sapiens with 12 samples.

Results

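The BCL2 family of apoptosis regulators was described here through 10 genes, chosen by gene name from a table of read counts for 58735 genes: BBC3, PMAIP1, BCL2L11, BMF, BID, BAX, BAK1, MCL1, BCL2L1 and BCL2. All 10 were present once, and all 10 were among the 16618 genes that passed a filter on low counts. Proteins of this family decide whether the outer membrane of the mitochondrion is opened. BAX and BAK1 are the effectors that form the openings, MCL1, BCL2L1 (BCL-XL) and BCL2 are the guardians that hold them back, and the BH3-only proteins PMAIP1 (NOXA), BBC3 (PUMA), BCL2L11 (BIM), BMF and BID bind the guardians or the effectors and so promote opening. Once the membrane is open, cytochrome c leaves the mitochondrion and starts the caspase cascade. Many of these proteins are regulated by cleavage, phosphorylation or turnover, which RNA counts do not show.

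Messenger RNA was sequenced from 2 immortalized human keratinocyte lines, HaCaT of skin and TIGK of gingiva, each left untreated or exposed to 5 mM hydrogen peroxide (H2O2) for 3 h. Both lines were grown to full confluence before treatment, and the labels name DermaLife K Keratinocyte Complete Medium for the untreated libraries. Each of the 4 groups held 3 libraries, and each tissue was represented by 1 line, so differences between lines cannot be told apart from differences between tissues. The sources used here do not state whether the 3 libraries came from separate cultures, so that p-values measure the spread between these samples, which may be technical. The treatment labels of the replicates differ in the last digit of the compound's formula, but the protocol and the methods give H2O2 throughout.

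Library totals lay between 30426401 and 49034244 counts. All 9 keratinocyte markers checked were detected, and their summed level was 1132000 to 1426000 normalized counts per library. The summed level was 342.7 to 795 for 15 markers of fibroblasts, melanocytes, endothelium and immune cells. Among these, COL1A2 was at 0 in every library, while COL1A1 (up to 844 raw counts), PMEL and VWF were detected in every library. The share of counts from the mitochondrial chromosome differed between the groups: 3.33 to 3.45% in untreated and 1.39 to 1.5% in treated TIGK, and 6.1 to 6.26% in untreated and 3.3 to 3.51% in treated HaCaT. Taking these genes out before scaling is given below where it changed a call. Fewer cells of a kind and less RNA per cell cannot be told apart in such bulk samples.

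The region before the start of transcription is shown for 4 members, because PMAIP1 and BBC3 had the largest rises in HaCaT, BCL2L11 the largest fall in TIGK, and BAX rose in both lines. The sequences are the 250 bases before the RefSeq start on GRCh38.p14, written 5′ to 3′ on the strand of the gene. Capitals mark matches, on either strand, to the core motifs of AP-1 (TGANTCA), CRE-binding factors (TGACGT), EGR factors (GCGNGGGCG), E-box factors (CACGTG), forkhead factors (GTAAACA) and the amino acid response element bound by ATF4 (TGATGNAA).
PMAIP1: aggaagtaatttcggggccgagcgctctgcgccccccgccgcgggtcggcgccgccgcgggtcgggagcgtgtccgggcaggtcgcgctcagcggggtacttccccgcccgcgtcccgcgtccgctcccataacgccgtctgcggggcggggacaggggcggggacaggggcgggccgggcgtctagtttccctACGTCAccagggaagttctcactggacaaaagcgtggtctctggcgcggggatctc
BBC3: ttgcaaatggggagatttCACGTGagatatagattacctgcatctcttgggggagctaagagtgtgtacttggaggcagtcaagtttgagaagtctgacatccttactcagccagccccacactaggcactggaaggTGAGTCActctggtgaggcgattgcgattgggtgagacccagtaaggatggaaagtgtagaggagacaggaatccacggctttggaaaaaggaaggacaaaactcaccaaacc
BCL2L11: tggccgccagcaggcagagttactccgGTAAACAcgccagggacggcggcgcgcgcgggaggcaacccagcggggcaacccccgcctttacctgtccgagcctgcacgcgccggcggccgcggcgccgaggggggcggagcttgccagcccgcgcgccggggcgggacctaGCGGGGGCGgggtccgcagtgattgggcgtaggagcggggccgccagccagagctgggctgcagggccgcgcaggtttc
BAX: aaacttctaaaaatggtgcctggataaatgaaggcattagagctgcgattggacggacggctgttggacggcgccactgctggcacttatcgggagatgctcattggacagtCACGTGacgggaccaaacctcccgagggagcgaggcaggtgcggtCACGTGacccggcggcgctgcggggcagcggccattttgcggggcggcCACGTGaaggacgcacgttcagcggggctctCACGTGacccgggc
The windows are chr18:59899746-59899995 on the plus strand for PMAIP1, chr19:47232668-47232917 on the minus strand for BBC3, chr2:111120664-111120913 on the plus strand for BCL2L11 and chr19:48954625-48954874 on the plus strand for BAX. The PMAIP1 window held 1 CRE core, read on the opposite strand, from 56 to 51 bases before the start, a motif present in 7.1% of the 35116 promoter windows of this length. The BBC3 window held 1 AP-1 motif (6.57% of all windows) and 1 E-box (6.34%). In BCL2L11 there was 1 forkhead motif (2.98% of all windows) 223 to 217 bases before the start and 1 EGR motif (8.41%) 79 to 71 bases before it. The BAX window held 4 E-boxes, the farthest from 138 to 133 and the nearest from 14 to 9 bases before the start. No window of a member held the ATF4-type motif, which was present in 3.14% of all windows. RefSeq entries were found for 9 of the 10 members, with 15 windows in all, and MCL1 had no entry. The motifs were chosen after the sequences had been seen, no 2 matches shown here overlap, and a match describes the letters of the window only.

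Per gene length, the family spanned a wide range in every group, from MCL1 at the top to BMF at the bottom. These levels are RPKM values, that is reads per kilobase of gene length relative to the TMM-scaled depth, the only scale used here to compare different genes. In untreated TIGK, the mean levels were 90.2 ± 4.51 for MCL1 (SD, n = 3, as for all levels that follow), 29.1 ± 2.85 for BCL2L1, 26.4 ± 1.90 for BAK1, 20.9 ± 0.933 for PMAIP1, 14.1 ± 0.634 for BAX, 11.6 ± 0.157 for BID and 3.83 ± 0.319 for BCL2L11. BBC3, BCL2 and BMF were scarce, at 0.515 ± 0.0644, 0.293 ± 0.0683 and 0.162 ± 0.0393. BCL2L1 and BAK1 overlapped between libraries in this group, and the other neighbours in the order did not.

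In untreated HaCaT, MCL1 again led, at 151 ± 2.01, and was followed by BAK1 at 30.4 ± 0.925 and BCL2L1 at 27.2 ± 1.10, in the opposite order to TIGK. BAX at 14.9 ± 0.490 and PMAIP1 at 14.0 ± 0.566 overlapped, as did BBC3 at 0.302 ± 0.0465 and BCL2 at 0.260 ± 0.0827. BID stood at 10.9 ± 0.366, BCL2L11 at 2.60 ± 0.190 and BMF at 0.0830 ± 0.0742. PMAIP1 thus ranked below BAK1 and BCL2L1 in both untreated lines. After H2O2 it lay level with BCL2L1 in both: 31.4 ± 0.837 against 32.2 ± 0.997 in TIGK, and 32.4 ± 2.77 against 31.3 ± 1.37 in HaCaT, with overlapping libraries. MCL1 reached 182 ± 2.52 in treated TIGK and 246 ± 17.5 in treated HaCaT, far above every other member.

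**Figure D1:**
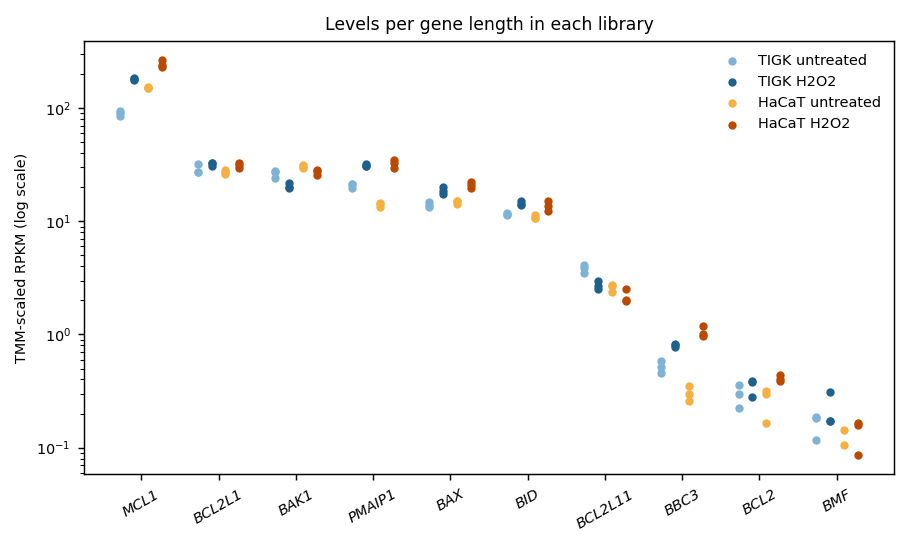
Levels of the 10 members per gene length in each of the 12 libraries, in TMM-scaled RPKM on a log axis, with genes ordered by their mean and 1 point per library. MCL1 lies highest in every library and BBC3, BCL2 and BMF lowest, and the single BMF library with no read is not drawn.

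The first comparison asked how each line responded to H2O2. In TIGK, 4 members rose (MCL1, PMAIP1, BAX and BID) and 2 fell (BCL2L11 and BAK1) at an adjusted p under 0.01 in edgeR's quasi-likelihood test. In HaCaT, 5 rose (BBC3, PMAIP1, MCL1, BAX and BID) and 0 fell. Of all genes tested, 10.2% were called higher and 12.9% lower in TIGK, and 18.9% higher and 15.2% lower in HaCaT. The median log2 fold change of the members was 0.36 in TIGK and 0.58 in HaCaT, against 0.0084 and 0.038 over all genes. At an unadjusted p under 0.05, 2 members were lower in HaCaT (BCL2L11 and BAK1), and DESeq2 called 0 there. Counts at that unadjusted limit are given here and below without the share of all genes, so they have no background.

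**Figure D2:**
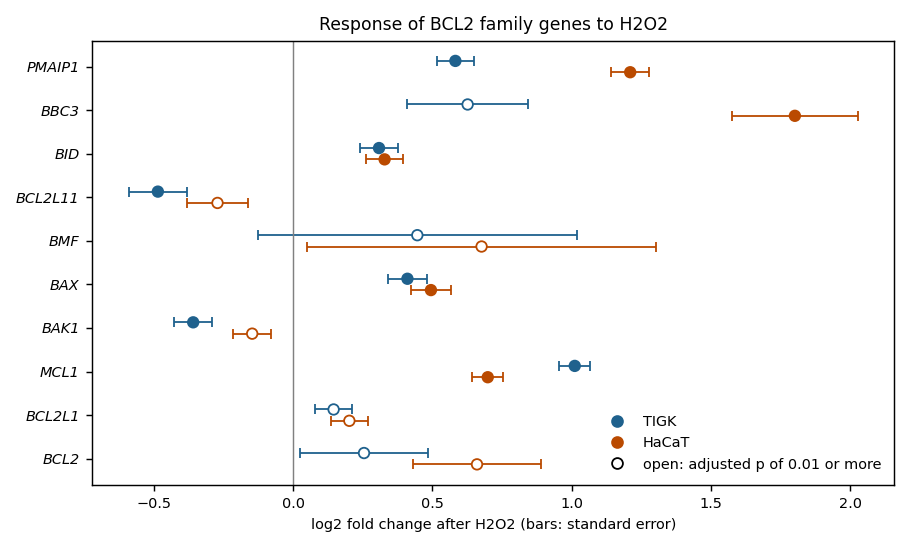
Log2 fold change after H2O2 for each member in TIGK (blue) and HaCaT (orange), with bars for the standard error and open circles where the adjusted p was 0.01 or more. PMAIP1 and BBC3 lie further to the right in HaCaT, MCL1 further to the right in TIGK.

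Among the BH3-only genes, PMAIP1 (ENSG00000141682, chr18:59899948-59904306 on GRCh38, plus strand) encodes NOXA, which binds MCL1 with preference and marks it for degradation. Normalized counts, that is counts scaled with TMM factors to the mean library total, were 1743, 1745 and 1613 in untreated TIGK and 2504, 2625 and 2511 in treated TIGK. They were 1168, 1084 and 1158 in untreated HaCaT and 2385, 2689 and 2824 in treated HaCaT. The groups did not overlap in either line, and untreated HaCaT lay below all other libraries. PMAIP1 rose 1.498-fold in TIGK (log2 fold change 0.58 ± 0.067 SE, adjusted p = 2.27e-06 in edgeR) and 2.31-fold in HaCaT (1.21 ± 0.069, adjusted p = 1.98e-10).

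BBC3 (ENSG00000105327, chr19:47220822-47232766, minus strand) encodes PUMA, a p53 target that can bind every guardian. It was one of the scarcer members, with 67.1, 59.1 and 52.3 normalized counts in untreated TIGK and 95.2, 92.3 and 88.7 after H2O2. In HaCaT the counts were 29.8, 34.3 and 40.5 before and 111, 115 and 137 after. Treated and untreated libraries were apart in both lines. The rise was 3.49-fold in HaCaT, the largest of the family (log2 fold change 1.80 ± 0.23 SE, adjusted p = 4.67e-06 in edgeR). In TIGK the log2 fold change was 0.63 ± 0.22, which missed the threshold (adjusted p = 0.0308), with a 95% interval from 0.17 to 1.08.

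BCL2L11 (ENSG00000153094, chr2:111119378-111168447, plus strand) encodes BIM, which binds all guardians and can activate the effectors, and it went the other way. Its normalized counts were 940.8, 842.0 and 994.2 in untreated TIGK and 611.6, 722.4 and 648.5 after H2O2, without overlap. BCL2L11 fell by 0.49 on the log2 scale (SE 0.10, adjusted p = 0.0014 in edgeR), and this call was lost without treated TIGK replicate 1 (log2 fold change -0.43, adjusted p = 0.0108) or replicate 3 (-0.44, adjusted p = 0.0125). In HaCaT the counts were 651.8, 575.8 and 658.6 before and 605.3, 474.6 and 484.7 after, and the groups overlapped. The log2 fold change there was -0.27 ± 0.11 (adjusted p = 0.0461), and it passed only without treated HaCaT replicate 1 (-0.42, adjusted p = 0.00339). The gene lies within MIR4435-2HG on the opposite strand, which held 9676 counts over all libraries and had log2 fold changes of -0.49 in TIGK and -0.37 in HaCaT. Whether the counting used strand is not given in the sources used here, so the reads of both genes may not be separated and the values of BCL2L11 are uncertain.

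BID (ENSG00000015475, chr22:17734138-17774770, minus strand) links death receptors to mitochondria once caspase 8 has cleaved its protein. Normalized counts were 1882, 1896 and 1846 in untreated TIGK and 2420, 2303 and 2245 in treated TIGK. In HaCaT they were 1831, 1736 and 1722 before and 1996, 2225 and 2424 after, so that both lines showed a small rise without overlap. BID rose 1.24-fold in TIGK (log2 fold change 0.31 ± 0.067 SE, adjusted p = 0.00156 in edgeR) and 1.26-fold in HaCaT (0.33 ± 0.068, adjusted p = 0.000651). The TIGK call was lost without treated TIGK replicate 1 (0.28, adjusted p = 0.0114).

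BMF (ENSG00000104081, chr15:40087890-40108892, minus strand), whose protein is held at the cytoskeleton until it is released, was close to the limit of the depth. It had 36.6, 36.3 and 23.0 normalized counts in untreated TIGK, 33.7, 34.3 and 61.8 in treated TIGK, 28.3, 21.0 and 0 in untreated HaCaT and 31.2, 32.7 and 17.1 in treated HaCaT. The groups overlapped in both lines, and a change was not detectable at this depth (log2 fold changes 0.45 ± 0.57 in TIGK and 0.68 ± 0.63 in HaCaT, adjusted p = 0.58 and 0.401 in edgeR). Single libraries moved both values: without treated TIGK replicate 3 the value in TIGK was 0.12, and in HaCaT it was 0.11 without untreated replicate 3, which had no read, and 1.39 without untreated replicate 1.

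The effectors BAX and BAK1 did not move together. BAX (ENSG00000087088, chr19:48954815-48961798, plus strand), a cytosolic protein that inserts into the mitochondrial membrane on activation, had 1323, 1263 and 1382 normalized counts in untreated and 1625, 1760 and 1885 in treated TIGK. In HaCaT it had 1346, 1433 and 1416 before and 1847, 1976 and 2086 after. All treated libraries lay above all untreated ones of either line. BAX rose 1.33-fold in TIGK (log2 fold change 0.41 ± 0.071 SE, adjusted p = 0.000182 in edgeR) and 1.41-fold in HaCaT (0.49 ± 0.071, adjusted p = 1.91e-05).

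BAK1 (ENSG00000030110, chr6:33572547-33580293, minus strand), whose protein resides in the mitochondrial membrane, had 2238, 2181 and 1950 normalized counts in untreated and 1770, 1573 and 1629 in treated TIGK. In HaCaT the values were 2366, 2514 and 2438 before and 2239, 2308 and 2064 after. Treated libraries were lower than untreated ones without overlap in both lines, but the step passed the test in TIGK only. BAK1 fell by 0.36 on the log2 scale in TIGK (SE 0.069, adjusted p = 0.000494 in edgeR), while the value in HaCaT was -0.15 ± 0.068 (adjusted p = 0.0856). Its processed pseudogene BAK1P1 held 7 to 43 raw counts per library, which limits how many reads the authors' counting can have assigned to it instead of BAK1.

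Of the guardians, MCL1 alone passed the test. MCL1 (ENSG00000143384, chr1:150574551-150579738, minus strand) encodes a short-lived guardian that holds back BAK1 and binds BH3-only proteins. Its normalized counts were 15010, 14330 and 13580 in untreated TIGK and 28940, 29190 and 28400 in treated TIGK. In HaCaT they were 23950, 23740 and 24360 before and 42000, 36550 and 38390 after. The 4 groups were fully apart, in the order untreated TIGK, untreated HaCaT, treated TIGK and treated HaCaT. MCL1 rose 2.02-fold in TIGK (log2 fold change 1.01 ± 0.056 SE, adjusted p = 1.03e-10 in edgeR), the largest change of the family in that line, and 1.62-fold in HaCaT (0.70 ± 0.056, adjusted p = 1.85e-08).

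BCL2L1 (ENSG00000171552, chr20:31664452-31723989, minus strand), which encodes BCL-XL and also a short pro-apoptotic splice form that gene counts do not separate, stayed within a narrow range. It had 3896, 3305 and 3299 normalized counts in untreated and 3923, 3735 and 3958 in treated TIGK, with overlap, and 3399, 3136 and 3277 in untreated and 3586, 3912 and 3794 in treated HaCaT, without overlap. The log2 fold changes were 0.15 ± 0.065 (adjusted p = 0.0898 in edgeR) and 0.20 ± 0.065 (adjusted p = 0.0166). Without untreated TIGK replicate 1, the highest of its group, both passed, at 0.23 (adjusted p = 0.00872) and 0.20 (adjusted p = 0.00581).

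BCL2 (ENSG00000171791, chr18:63123346-63320128, minus strand), the founding guardian, was scarce in both lines. It had 126, 95.4 and 154 normalized counts in untreated and 165, 120 and 163 in treated TIGK, with overlap. In HaCaT it had 70.3, 128 and 134 before and 171, 185 and 164 after, without overlap. Neither response passed the test (log2 fold changes 0.25 ± 0.23 and 0.66 ± 0.23, adjusted p = 0.417 and 0.0253 in edgeR). The value in TIGK ran from 0.12 without untreated TIGK replicate 2 to 0.43 without untreated TIGK replicate 3. The value in HaCaT rested in part on untreated HaCaT replicate 1 and was 0.40 without it (adjusted p = 0.149).

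**Figure D3:**
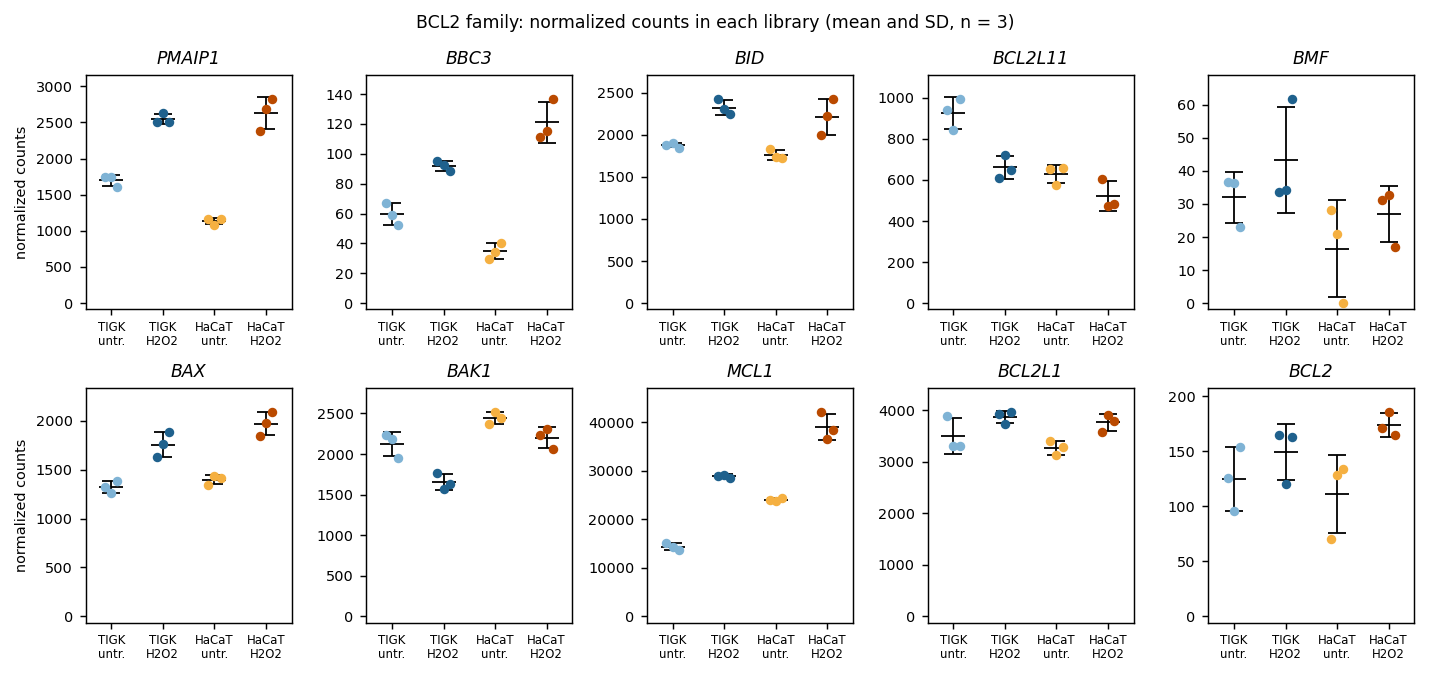
Normalized counts of each member in the 12 libraries, with 1 panel per gene, points for libraries and black bars for the mean and SD (n = 3) of untreated and treated TIGK and HaCaT. PMAIP1, BAX, BID and MCL1 step up with H2O2 in both lines, and untreated HaCaT starts lower than untreated TIGK for PMAIP1 and BBC3 and higher for MCL1.

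The second comparison tested whether the response differed between the lines. PMAIP1 was the single member to pass, with a response smaller in TIGK than in HaCaT by 0.63 on the log2 scale (TIGK minus HaCaT -0.63 ± 0.096 SE, adjusted p = 0.000255 in edgeR). Of all genes, 2.32% were called with a higher and 2.98% with a lower response in TIGK, so that 43.7% of the calls were higher, a share that was 60.1% with the mitochondrial genes taken out before scaling. The difference of PMAIP1 lay between -0.67 and -0.55 over 20 alternatives and kept its call in all but the limit of a 2-fold change.

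BBC3 had the largest difference in size, -1.18 ± 0.31, with an adjusted p of 0.0192 in edgeR that missed the threshold, while DESeq2 called it (-1.16, adjusted p = 0.00554). MCL1 responded more in TIGK, by 0.31 ± 0.079 (adjusted p = 0.0138 in edgeR), and passed with DESeq2 (0.34, adjusted p = 0.00077), with upper-quartile scaling (0.34, adjusted p = 0.00883), without mitochondrial genes (0.36, adjusted p = 0.00601), when scarce genes were kept in (0.37, adjusted p = 0.000133) and without treated HaCaT replicate 1 (0.43, adjusted p = 0.000788). For these 2 genes the call thus depended on the tool or the setting, though the direction did not.

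The other 7 members did not pass, and their intervals show what the data allow. The 95% intervals of the difference were narrow for BID (-0.22 to 0.18), BAX (-0.29 to 0.13) and BCL2L1 (-0.25 to 0.14). They reached from -0.53 to 0.10 for BCL2L11 and from -0.41 to -0.0091 for BAK1, which has an unadjusted p of 0.0415 and an adjusted p of 0.173 in edgeR. For BCL2 (-1.09 to 0.28) and BMF (-2.0 to 1.54) they were wider than for any other member.

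The third comparison set the lines against each other before and after treatment. Untreated, MCL1 was higher in HaCaT and 3 BH3-only genes, PMAIP1, BCL2L11 and BBC3, were lower, against a background of 29.1% of all genes called higher and 30.8% lower in HaCaT. MCL1 stood 1.68-fold higher in HaCaT (log2 fold change 0.75 ± 0.056 SE, adjusted p = 6.03e-10 in edgeR). PMAIP1 differed by -0.58 ± 0.069 (adjusted p = 4.08e-07) and BCL2L11 by -0.56 ± 0.10 (adjusted p = 0.000108). The values of the untreated lines rest on the same untreated libraries as the responses and their difference above, so they are not independent of them.

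The untreated libraries of the lines did not overlap for any of the 4 genes called, nor for BAK1 and BID, which were not called. The share of all genes without such overlap is not given here. BBC3 differed by -0.78 ± 0.23 (adjusted p = 0.00639 in edgeR), a call that was lost when scarce genes were kept in (adjusted p = 0.0289), with the groups fitted alone (adjusted p = 0.0247), and without untreated TIGK replicate 1 or 2 (adjusted p = 0.0286 and 0.0167) or untreated HaCaT replicate 1 or 2 (adjusted p = 0.0338 and 0.0171). BAK1 was higher by 0.20 ± 0.068 and missed the threshold (adjusted p = 0.014), which it passed when scarce genes were kept in (0.23, adjusted p = 0.00624) and without treated HaCaT replicate 1 (0.22, adjusted p = 0.00706) or replicate 3 (0.20, adjusted p = 0.00677). BID, BAX, BCL2L1, BCL2 and BMF did not pass the test between the untreated lines, with adjusted p from 0.191 to 0.495.

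After H2O2, PMAIP1 and BBC3 did not pass the test between the lines. The difference of PMAIP1 between treated HaCaT and treated TIGK was 0.048 ± 0.067 (adjusted p = 0.537 in edgeR), with a 95% interval from -0.092 to 0.19, and its libraries overlapped. BBC3 differed by 0.40 ± 0.21 (adjusted p = 0.0983), with an interval from -0.040 to 0.84, although its libraries were apart. These values rest on the same treated libraries as the responses above. BAX was higher in treated HaCaT by 0.16 ± 0.070 and missed the threshold too (adjusted p = 0.0447 in edgeR). BID, BCL2L1, BCL2 and BMF did not pass either, with adjusted p from 0.3 to 0.593, although the BMF libraries were apart.

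MCL1 and BAK1 were higher in treated HaCaT, by 0.43 ± 0.056 (adjusted p = 1e-06 in edgeR) and 0.41 ± 0.069 (adjusted p = 2.9e-05), where 30.2% of all genes were called higher and 29.8% lower. BCL2L11 was lower by 0.34 on the log2 scale, at -0.34 ± 0.11 (adjusted p = 0.00859). It lost the call with the groups fitted alone (adjusted p = 0.0126) and without any 1 of 6 libraries: untreated TIGK replicate 1 (adjusted p = 0.0107), treated TIGK replicate 2 (0.0245), untreated HaCaT replicates 1 and 3 (0.0111 and 0.0109) and treated HaCaT replicates 2 and 3 (0.0489 and 0.0355).

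The ratio of a BH3-only gene to the guardian it binds can be read within a library and does not depend on the scaling between libraries. PMAIP1 per gene length was 22.7, 23.8 and 23.2% of MCL1 in the untreated TIGK libraries and 16.9, 17.6 and 17.3% in the treated ones. In HaCaT it was 9.54, 8.93 and 9.30% before and 11.1, 14.4 and 14.4% after. Within each line, every treated TIGK library lay below every untreated one, and every treated HaCaT library above every untreated one. All HaCaT libraries, treated or not, still lay below all TIGK libraries. The mean log2 ratio moved by -0.43 in TIGK and by 0.51 in HaCaT, a difference that was not tested. It follows from the responses of PMAIP1 and MCL1 given above and is not a separate result.

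BCL2L11 as a share of BCL2L1 was lower after H2O2 in both lines. It was 12.0, 12.7 and 15% in untreated and 7.76, 9.63 and 8.16% in treated TIGK, and 9.54, 9.14 and 10% in untreated and 8.40, 6.04 and 6.36% in treated HaCaT. Neither line showed overlap, and the doubt about strand for BCL2L11 holds here too. BAX was 4090 to 8710% of BCL2, and treated and untreated libraries overlapped in both lines.

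**Figure D4:**
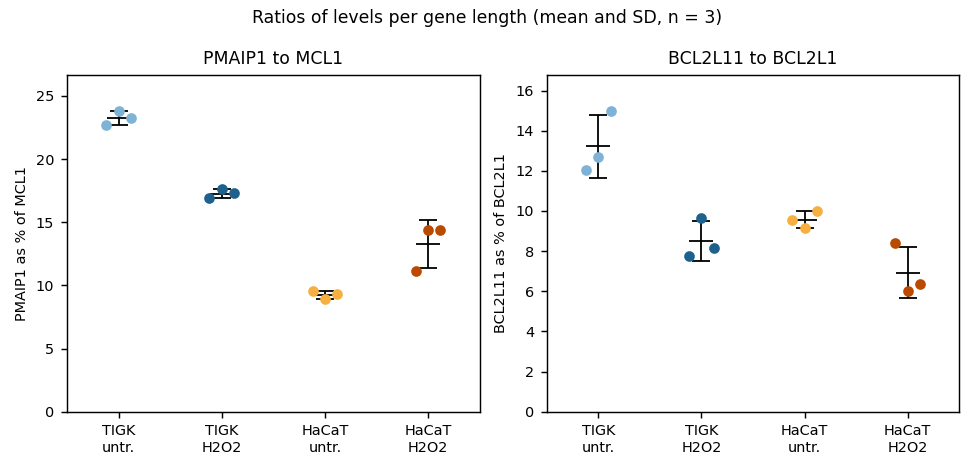
PMAIP1 as a percentage of MCL1 (left) and BCL2L11 as a percentage of BCL2L1 (right), from levels per gene length, with points for libraries and black bars for the mean and SD (n = 3). The first ratio steps down with H2O2 in TIGK and up in HaCaT, and the second steps down in both. The first ratio is lower in every HaCaT library than in any TIGK library.

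The genes most like 3 members over the 12 libraries were sought among genes with at least 100 normalized counts, by Pearson's r of log2 CPM. The members were those with the smallest p in the difference of responses. For PMAIP1 they were EIF1 (r = 0.992) and ATF3 (r = 0.986), for MCL1 SGO2 (0.988) and MIS12 (0.987), and for BBC3 PMAIP1 itself (0.971) and CCNB1 (0.970). These values describe the same 12 libraries, which share 4 group means.

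The rest of the family was read from a list of 13 further relatives, of which 10 could be tested. In TIGK, where 10.2% of all genes rose, 1 rose, BNIP3 (log2 fold change 0.44 ± 0.075, adjusted p = 0.000175 in edgeR), a mitochondrial receptor for mitophagy. In HaCaT 4 rose and 2 fell, against 18.9% and 15.2% of all genes. BNIP3 rose there too (0.55 ± 0.078, adjusted p = 1.95e-05), as did BOK, an effector relative (0.44 ± 0.082, adjusted p = 0.000283), and the less characterized BCL2L10 (0.96 ± 0.25, adjusted p = 0.00397) and BCL2L12 (0.35 ± 0.099, adjusted p = 0.00687).

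BCL2L2, the guardian BCL-W, fell by 0.44 (adjusted p = 0.000104 in edgeR), and BNIP3L, another mitophagy receptor, by 0.37 (adjusted p = 0.000665) on the log2 scale in HaCaT. BCL2L12 lost its call in 11 of 21 alternatives and BCL2L10 in 6. The responses of the lines differed for BOK (TIGK minus HaCaT -0.55 ± 0.12, adjusted p = 0.0044 in edgeR) and BCL2L2 (0.53 ± 0.10, adjusted p = 0.00271). DESeq2 called BNIP3L there as well (0.39 with an adjusted p of 0.0256 in edgeR). In the responses DESeq2 also called BCL2L13 higher in TIGK and BAD higher in HaCaT. BCL2L2 had 1265, 1262 and 1263 normalized counts in untreated and 1370, 1282 and 1387 in treated TIGK, against 2182, 2035 and 1955 before and 1691, 1388 and 1478 after in HaCaT, so that the lines drew closer. Between the untreated lines, 4 of the 10 were higher and 5 lower in HaCaT, against 29.1% and 30.8% of all genes, and between the treated lines 4 and 4, against 30.2% and 29.8%.

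Downstream of the mitochondrion, 5 of 18 genes of the apoptosome and caspase list rose and 1 fell in TIGK, and 9 rose and 2 fell in HaCaT. Over all genes, 10.2% were called higher and 12.9% lower in TIGK and 18.9% and 15.2% in HaCaT. CASP6, an executioner caspase gene, rose in both lines (log2 fold changes 0.45 ± 0.12 in TIGK and 0.44 ± 0.13 in HaCaT, adjusted p = 0.00514 and 0.00752 in edgeR). ENDOG, a mitochondrial nuclease gene, rose in HaCaT by 0.67 ± 0.13 (adjusted p = 0.000457). Of the inhibitors of apoptosis, BIRC6 fell in both lines, by 0.35 on the log2 scale in TIGK (adjusted p = 0.0034 in edgeR) and by 0.56 in HaCaT (adjusted p = 3.92e-05), with a TIGK value of -0.21 without untreated TIGK replicate 3 (adjusted p = 0.021). XIAP, which blocks caspases, fell by 0.59 in HaCaT (adjusted p = 1.42e-05). BIRC2, BIRC5 and BIRC3 are inhibitors named here after their values were seen. BIRC2 rose in both lines (0.22 in TIGK and 0.30 in HaCaT, adjusted p = 0.0085 and 0.000493 in edgeR). BIRC5 rose in HaCaT (0.42, adjusted p = 5.46e-05) and missed the threshold in TIGK (0.19, adjusted p = 0.0335). BIRC3 was called in neither TIGK nor HaCaT (0.21 and 0.23, adjusted p = 0.141 and 0.0979). In TIGK, CASP6 lost its call in 7 of 21 alternatives and BIRC6 in 5. In the difference of responses edgeR called 0 of the 18, with 7 at an unadjusted p under 0.05, and DESeq2 called 1, XIAP. Without the share of all genes at that unadjusted limit, the 7 cannot be weighed. Between the untreated lines 4 of the 18 were higher and 5 lower in HaCaT, where 29.1% and 30.8% of all genes were, and between the treated lines 6 and 6, where 30.2% and 29.8% were.

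In the death receptor arm, which can reach the mitochondrion through BID, 3 of 11 genes tested rose and 4 fell in TIGK, and 2 rose and 3 fell in HaCaT, next to 10.2% and 12.9% of all genes in TIGK and 18.9% and 15.2% in HaCaT. CFLAR, the inhibitor of caspase 8 known as FLIP, fell in both, by 0.48 on the log2 scale in TIGK (adjusted p = 6.64e-05 in edgeR) and by 0.88 in HaCaT (adjusted p = 5.4e-08). The decoy receptor gene TNFRSF10D rose in both, by 0.79 ± 0.11 (adjusted p = 2.18e-05) and 0.69 ± 0.12 (adjusted p = 0.00011). CASP10, an initiator caspase gene, rose in TIGK (0.86 ± 0.17, adjusted p = 0.000811), and the adaptor gene TRADD in HaCaT (0.56 ± 0.095, adjusted p = 0.000115). For the difference edgeR called 0 of 11, with 5 at an unadjusted p under 0.05, and DESeq2 called 1, CFLAR. The 5 likewise have no share of all genes beside them. HaCaT was higher in 2 and lower in 4 untreated (29.1% and 30.8% of all genes), and higher in 4 and lower in 5 treated (30.2% and 29.8%).

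Among 13 known regulators of the members, 6 rose and 2 fell in TIGK, where 10.2% of all genes rose and 12.9% fell, and 6 rose and 5 fell in HaCaT, where 18.9% rose and 15.2% fell. JUN, an AP-1 subunit, had 4784, 4277 and 4264 normalized counts in untreated and 22960, 20950 and 25180 in treated TIGK, and 6100, 6252 and 6786 in untreated and 16780, 14500 and 13180 in treated HaCaT. The rise was larger in TIGK (log2 fold changes 2.37 ± 0.086 and 1.22 ± 0.083, difference 1.16 ± 0.12, adjusted p = 2.38e-06 in edgeR). DDIT3, which encodes the stress factor CHOP, rose by 1.08 ± 0.15 in TIGK and 1.00 ± 0.16 in HaCaT (adjusted p = 1.6e-05 and 5.76e-05). TP73, a p53 relative, rose by 0.87 ± 0.16 and 1.17 ± 0.17 (adjusted p = 0.000377 and 1.98e-05).

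MYC and E2F1 passed edgeR's test in 1 line each, while DESeq2 called MYC lower in HaCaT too. MYC rose in TIGK (0.76 ± 0.051, adjusted p = 1.71e-09 in edgeR) and had a log2 fold change of -0.14 ± 0.051 in HaCaT (adjusted p = 0.0263), a difference of 0.90 ± 0.072 (adjusted p = 1.44e-07). E2F1 rose in HaCaT (0.91 ± 0.086, adjusted p = 1.49e-07) and had 0.20 ± 0.086 in TIGK (adjusted p = 0.0763), a difference of -0.71 ± 0.12 (adjusted p = 0.000751). Between the lines, 2 regulators were higher and 4 lower in HaCaT untreated (29.1% and 30.8% of all genes), and 2 and 8 treated (30.2% and 29.8%).

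**Figure D5:**
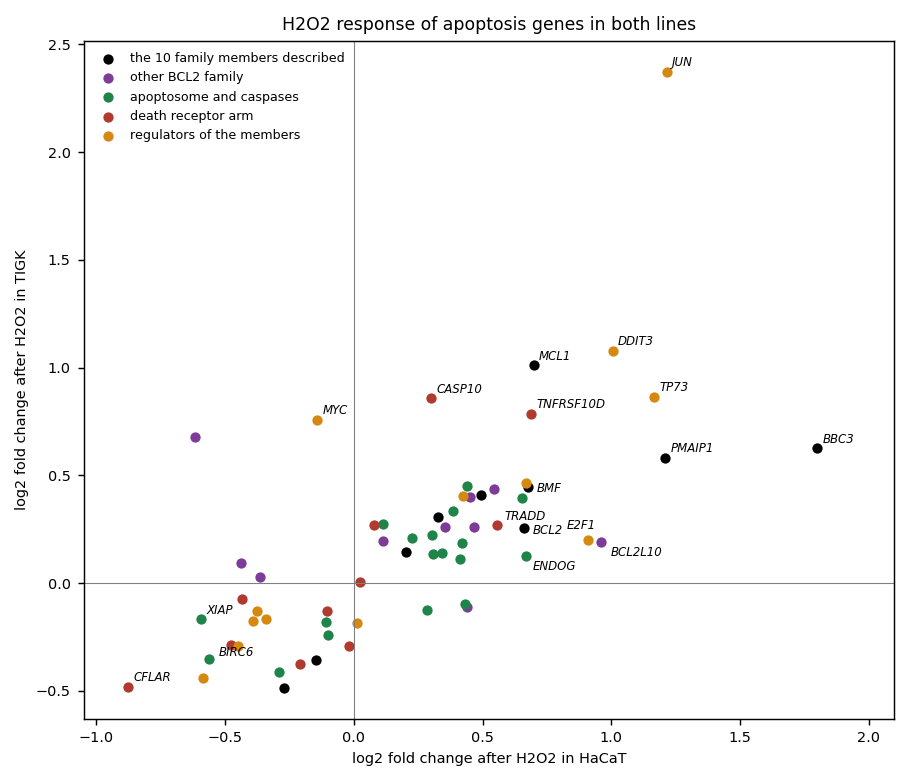
Log2 fold change after H2O2 in HaCaT (horizontal) and TIGK (vertical) for the tested genes of the family and of the 4 related lists, with 1 point per gene, coloured by list, and names for those described with a large change. BBC3 and PMAIP1 lie to the right, on the HaCaT side, while JUN, MYC and CASP10 lie on the TIGK side. The difference between the lines did not pass edgeR's test for BBC3 and CASP10.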

How the data were processed

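RNA was measured in 12 libraries of HaCaT and TIGK, untreated or after 5 mM H2O2 for 3 h, and groups were taken from the labels. The authors deposited raw read counts per gene for GRCh38. The submitters' processing notes name HISAT2 (2.0.0 and 2.0.5), StringTie 1.3.3b and featureCounts 1.5.0-p3, without roles for the 2 HISAT2 versions. The annotation release, the use of strand and the treatment of reads with several places are not given in the sources used here. The authors also deposited fold changes and p-values of their 4 comparisons, which were not used.

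The main test was that of edgeR 4.0.16 under R 4.3.3 (TMM, a mean raw count of 10 or more, 1 mean per group over all libraries, quasi-likelihood test, Benjamini-Hochberg adjustment over 16618 genes, limit 0.01) and, as an alternative, DESeq2 1.42.0, the tool the study used. Standard errors are the log2 fold change over the root of F. Figures used Python 3.11.15 and matplotlib 3.10.9. Scripts were tested on simulated data in which the changed genes were known. Replicates were further apart than counting noise (chi-square per degree of freedom 4.36 to 26.9), so the spread between replicates, not depth, limits precision for all but the scarce members. All 10 members were named in every comparison. For the other lists, counts are given for each comparison, and the 3 largest changes of each response and every gene called in the difference were to be named, with every relative of the family called in a response. The values of 1 gene that this rule names are not reported here. The members and lists were chosen with earlier results of these data known.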

Additional observations from a re-analysis of the deposited data

Results flagged for a closer look

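For 6 genes the H2O2 response differed between the lines in edgeR's test of the difference itself (TIGK minus HaCaT, log2). They were 1 of 10 members, 2 of 10 relatives and 3 of 13 regulators. The apoptosome and caspase list held 0 of 18, and the death receptor arm 0 of 11. Over all genes, 2.32% were called with a higher and 2.98% with a lower response in TIGK. The values of the 6 were -0.63 for PMAIP1, -0.55 for BOK, 0.53 for BCL2L2, -0.71 for E2F1, 0.90 for MYC and 1.16 for JUN. BOK lost this call in 7 of 20 alternatives and BCL2L2 in 2. The level of PMAIP1 relative to MCL1 was lower in every treated than in every untreated TIGK library. In HaCaT it was higher in every treated than in every untreated library, yet below all TIGK libraries. The changes of the log2 ratio differed by -0.94, which was not tested. This ratio is made of the same PMAIP1 and MCL1 counts as the responses of these genes and is not a separate result. Outlying libraries were not sought, since each group held 3.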

How the results depend on the processing

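Counts of members called over the 5 comparisons (TIGK response, HaCaT response, their difference, lines untreated, lines treated) were 6, 5, 1, 4 and 3, beside 3850, 5664, 881, 9951 and 9965 genes in all. A limit of adjusted p under 0.05 gave 8 for HaCaT (7804 genes in all) and 3 for the difference (2019). Requiring a 2-fold change left 1, 2, 0, 0 and 0 in edgeR (621, 875, 189, 4493 and 4483 genes), where 8, 9, 4, 5 and 4 had an unadjusted p under 0.05. The share of all genes at that unadjusted limit is not given. For the difference, DESeq2 gave 3 (1426 genes) and upper-quartile scaling, no mitochondrial genes and no filter on low counts 2 each (866, 868 and 1288). Leaving out 1 library gave 4 to 7, 5 to 6, 1 to 2 (MCL1 added without treated HaCaT replicate 1), 3 to 5 and 2 to 3, with 2853 to 4644, 4361 to 5844, 536 to 1092, 9087 to 10317 and 9131 to 10038 genes. The replicate numbers did not pair the samples (18 pairs, r from -0.121 to 0.0257, 5 best matched by their own number), and the replicate block gave 6, 5, 1, 3 and 2 members and 3239, 5022, 606, 9546 and 9583 genes, without BBC3 (adjusted p = 0.0113) and BCL2L11 (adjusted p = 0.0117) between the lines. Signs turned only for uncalled values. The difference of BID became 0.0025 (DESeq2), 0.0026 (RLE), 0.0060 (upper-quartile), 0.029 (no mitochondrial genes) and 0.038 (no filter), and ran from -0.051 to 0.071 without single libraries. That of BCL2L1 became 0.0017 (no filter) and ran from -0.099 to 0.033, and that of BMF from -0.94 to 0.34, positive without untreated HaCaT replicate 3. PMAIP1 between treated lines became -0.031 (upper-quartile) and -0.00384 (no mitochondrial genes) and ran from -0.013 to 0.075 without single libraries, and BCL2 between untreated lines ran from -0.35 to 0.075, positive without untreated HaCaT replicate 1. The causes were not tested. Levels per length and ratios moved by less than 1 SD. Depth limits BMF, BBC3 and BCL2.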
